A study of Mus musculus with 6 samples.

Results

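The 78 genes described here encode collagens, laminins and integrins, the structural proteins and the main adhesion receptors of the extracellular matrix. They were chosen by name alone from a table of 29333 genes, of which 17807 are protein-coding. Every protein-coding symbol was taken that starts with Col, a number, the letter a and a number, with Lama, Lamb or Lamc and a number, or with Itga or Itgb and a number. This gave 44 collagen chains, 11 laminin chains, 20 integrin chains and 3 proteins that the name pattern also catches, Itgb1bp1, Itgb1bp2 and Itgb3bp. Of the 78 genes, 73 had a mean normalised read count of at least 10 over the 4 libraries and were tested. The other 5, Lamb3, Col19a1, Itgb2l, Col10a1 and Itgb1bp2, stayed at or below 12.9 in every library and were not tested.

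Collagens are triple helices of alpha chains. Collagen IV and the laminins, which are trimers of an alpha, a beta and a gamma chain, build the basement membrane that separates the Sertoli cells and spermatogonia of the seminiferous tubule from the peritubular myoid cells around it. Fibrillar collagens such as types I and III form the fibres of the interstitium between tubules. Integrins pair an alpha with a beta chain and hold cells to both kinds of matrix.

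RNA from whole mouse testes at postnatal day 16 was sequenced in Hsf5 knockouts and in controls. The knockouts are Hsf5-/-. The controls are labelled wild type, but the design text also admits Hsf5+/- animals, and the genotype of each control cannot be told apart. Hsf5 encodes a heat shock factor of spermatocytes. Of 3 labelled samples per group, 2 were analysed here, knockout 1 and knockout 3 and control 1 and control 2. The sources used here give neither the strain nor how the allele was made. Whether the samples are separate animals is not stated, so the spread among the sequenced samples may be technical. Each p-value draws on that spread, and mostly on its trend over all genes tested.

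Depth lay between 16209093 and 16824757 reads in the knockouts and between 18259304 and 18557898 reads in the controls. Hsf5 itself had 1926 and 1602 normalised reads in the knockouts, against 2541 and 3147 in the controls (log2 fold change -0.69, SE 0.12, limma Benjamini-Hochberg adjusted p = 0.00716), so transcript reads remained in the knockouts. The knockouts correlated at a Spearman rho of 0.993 and the controls at 0.987, and either pair differed beyond sampling noise (chi-square per degree of freedom 5.03 and 14.7). Of 20 tested pachytene spermatocyte markers, 18 were called lower in the knockouts, or 90%, beside 13.5% of all genes. The list summed to 27171 and 21760 in the knockouts and 67868 and 100827 in the controls. The same list was higher in control 2 than in control 1 for all 20 markers, beside 9351 of all 17480 genes. Sertoli cell markers summed to 218602 and 208401 in the knockouts and 188252 and 180504 in the controls, and 11 of 30 were called higher, a count that lay between 0 and 4 when any 1 library was left out. The 11 Sertoli calls were 36.7% of that list, beside 3.28% of all genes called higher. Of 17 tested spermatogonia markers, Uchl1, Sohlh1 and Rhox13 were called higher and Id4 lower, or 23.5% beside 16.8% of all genes, and 7 had an unadjusted p under 0.05. Leaving out any 1 library left 0 higher and 0 to 2 lower. No peritubular myoid marker of 15, Leydig marker of 12, endothelial marker of 12 or macrophage marker of 12 was called by limma, with 1, 2, 0 and 1 at an unadjusted p under 0.05. Their median log2 fold changes were 0.06, -0.24, 0.11 and 0.11, and 10 of the 12 Leydig markers were below 0. Of 12 interstitial fibroblast markers, Mgp alone was called, as higher, and lost the call without any 1 library (limma Benjamini-Hochberg adjusted p between 0.0598 and 0.118). The Mgp call was 8.33% of the fibroblast list, beside 16.8% of all genes called. The median log2 fold change of the fibroblast list was 0.21, beside 0.23 for the Sertoli markers and 0.01 for all genes. Of 10 epididymal and rete markers 4 were tested and none was called, with 2 at an unadjusted p under 0.05. No marker of these lists was at 0 in every library.

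Knockout testes were compared with control testes gene by gene. Most did not pass the test. By limma at a Benjamini-Hochberg adjusted p under 0.05 over all 17480 genes tested, 8 of the 73 genes were called, or 10.96%, beside 16.8% of all genes. Lower in the knockouts were 5 genes, Col9a1, Col2a1, Col16a1, Itga1 and Itgb3bp, which is 6.85% of those tested beside 13.5% of all genes. Higher were 3 genes, Col11a2, Itga11 and Lama5, which is 4.11% beside 3.28% of all genes. The median log2 fold change of the 73 genes was 0.04, beside 0.01 over all genes. Fold changes are on the log2(value + 1) scale and understate the change of low genes. In bulk tissue, fewer cells of a type and less RNA per cell cannot be told apart.

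**Figure D1:**
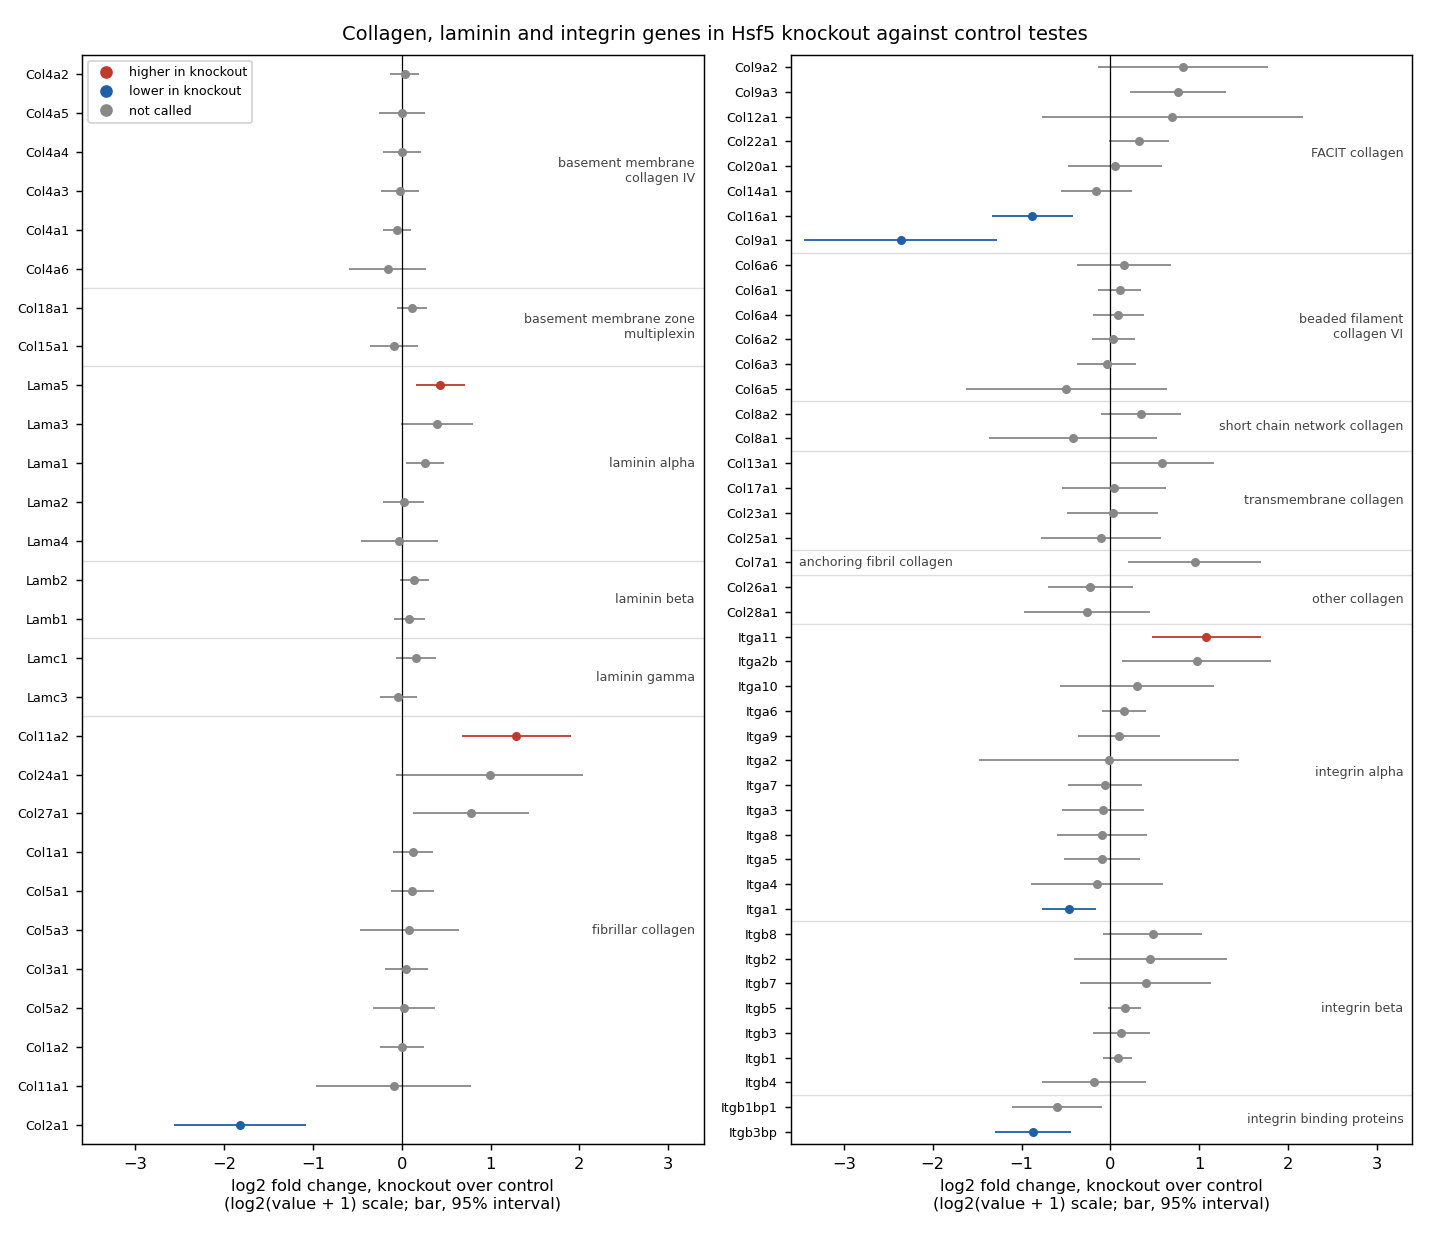
Log2 fold change of knockout over control for the tested genes, 1 laminin gene left out, grouped by role, with 95% intervals as bars. The collagen IV points lie between -0.16 and 0.04, and the called genes are Col9a1, Col2a1, Col16a1, Itga1 and Itgb3bp on the lower side and Col11a2, Itga11 and Lama5 on the higher side.

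The values of the 2 knockout libraries lay wholly above or wholly below those of the 2 control libraries in 30 of the 73 genes, or 41.1%, beside 61.7% of all genes. Of these, 21 were higher and 9 lower in the knockouts, beside 29.8% and 31.9% of all genes. At an unadjusted p under 0.05 the set held 15 genes, or 20.6%, beside 31.0% of all genes. None of the 8 calls was made by limma without the filter on low values or without the mean-variance trend, where 15 and 13 genes of the set had an unadjusted p under 0.05. All 8 had no overlap between groups, so leaving out any 1 library could not change their direction.

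The collagen IV chains, the sheet-forming collagens of basement membranes, had log2 fold changes between -0.16 and 0.04. Col4a1 had 6046 and 6289 normalised reads in the knockouts, against 6212 and 6582 in the controls. Its log2 fold change was -0.05 (95% interval -0.21 to 0.10), and the groups overlapped. Col4a2, which encodes the chain that pairs with it, had 4499 and 4762 in the knockouts, against 4416 and 4619 in the controls (0.04, -0.13 to 0.20). Its groups also overlapped. The ratio of Col4a1 to Col4a2 per kilobase of exon was 1.31 and 1.29 in the knockouts, against 1.37 and 1.39 in the controls. In an older mouse annotation these neighbouring genes share 22 exon bases on opposite strands, and reads over such bases cannot be assigned without strand.

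Col4a3, Col4a4 and Col4a5 encode the chains of another collagen IV network that is restricted to some basement membranes. Col4a3 had 1652 and 1908.5 normalised reads in the knockouts, against 1768.5 and 1834 in the controls. Col4a4 had 3952 and 4738 in the knockouts, against 4370 and 4269 in the controls. In both genes knockout 1 was the lowest of the 4 libraries and knockout 3 the highest, so the knockouts spanned the controls. Their log2 fold changes were -0.02 and 0.00, that of Col4a5 was 0.00, and that of the X-linked Col4a6, the least abundant of the chains, was -0.16 (-0.59 to 0.27). None of the 6 collagen IV genes was called by limma, and none had an unadjusted p under 0.05.

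Col18a1 and Col15a1 encode the multiplexins, collagens with glycosaminoglycan chains that sit in the basement membrane zone. Col18a1 had 6170 and 6849 normalised reads in the knockouts, against 5928 and 6061 in the controls. The groups did not overlap, but the log2 fold change of 0.12 (-0.05 to 0.29) was not called (limma Benjamini-Hochberg adjusted p = 0.326). Col15a1 had 904 and 1095 in the knockouts, against 1011 and 1107 in the controls, with overlap and a log2 fold change of -0.09 (-0.36 to 0.18).

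Among the 10 tested laminin chains, Lama5 was the 1 gene called, or 10%, beside 16.8% of all genes. Lama5 (ENSMUSG00000015647.10, chromosome 2) encodes the alpha 5 chain, found in many epithelial and vessel basement membranes. It had 827 and 943.5 normalised reads in the knockouts, against 701 and 610 in the controls. Both knockout values exceeded both control values, and the log2 fold change was 0.43 (SE 0.12, 95% interval 0.16 to 0.71, limma Benjamini-Hochberg adjusted p = 0.0414). The call was lost when any 1 library was left out (adjusted p between 0.0622 without control 1 and 0.298 without knockout 3) and with libraries rescaled by Sertoli cell markers (adjusted p = 0.237). The Sertoli cell marker sums given above were also higher in both knockouts, and their part in this result was not tested.

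Lama1 and Lama2, alpha chains of other laminins, differed in how the groups lay. Lama1 had 1820 and 2107 normalised reads in the knockouts, against 1662 and 1600.5 in the controls, without overlap, and its log2 fold change of 0.26 (0.05 to 0.48) was not called (limma Benjamini-Hochberg adjusted p = 0.098). Lama2, an alpha chain well known from muscle basement membrane, had 2310 and 2789 in the knockouts, against 2487 and 2519 in the controls, with overlap. The ratio of Lama2 to Lama1 per kilobase was 1.23 and 1.28 in the knockouts, against 1.45 and 1.53 in the controls. Lama3 and Lama4 had log2 fold changes of 0.40 (0.00 to 0.81) and -0.03 (-0.46 to 0.40).

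Lamb2, the more abundant beta chain per kilobase, had 5008 and 4800 normalised reads in the knockouts, against 4563 and 4330.5 in the controls. Lamb1 had 2905 and 3143 in the knockouts, against 2853 and 2853 in the controls. Neither gene's groups overlapped, and the log2 fold changes of 0.14 (-0.02 to 0.30) and 0.08 (-0.09 to 0.26) were not called. Scaled to library totals alone, where the median over all genes was 0.12, Lamb2 and Lama1 were called higher.

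Of the gamma chains, Lamc1, part of most laminins, had 2147 and 2549 normalised reads in the knockouts, against 2135 and 2038 in the controls. Lamc3, whose product lies at the junction of Sertoli cells with spermatids in rats, had 2954 and 3481 in the knockouts, against 3348 and 3247 in the controls. Lamc1 did not overlap between groups while Lamc3 did, and neither was called (0.17, -0.06 to 0.39, and -0.04, -0.25 to 0.17). The ratio of Lamc3 to Lamc1 per kilobase was 1.79 and 1.77 in the knockouts, against 2.04 and 2.07 in the controls.

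The fibrillar collagens split by level. The 4 abundant genes, Col1a2, Col3a1, Col1a1 and Col5a1, made up 95.2% and 95.5% of the summed reads of the 11 genes in the knockouts, and 95.4% and 94.3% in the controls, and none was called by limma or had an unadjusted p under 0.05. The 7 scarce ones held both calls of the class, Col2a1 lower and Col11a2 higher, or 28.6% beside 16.8% of all genes.

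Col1a2, a chain of type I collagen, had 6172 and 7903 normalised reads in the knockouts, against 6855 and 7066 in the controls. Col3a1, which encodes type III collagen, had 5997 and 7611 in the knockouts, against 6486 and 6548 in the controls. In both, knockout 1 was the lowest and knockout 3 the highest library. Col1a1, the other chain of type I, had 3165 and 3873 in the knockouts, against 3168.5 and 3252 in the controls, with the same order. The log2 fold changes were 0.01 (-0.24 to 0.25), 0.05 (-0.19 to 0.29) and 0.13 (-0.10 to 0.35), and those of Col5a1 and Col5a2, which set the width of type I fibrils, were 0.12 and 0.03. The ratio of Col1a1 to Col1a2 per kilobase was 0.463 and 0.442 in the knockouts, against 0.417 and 0.415 in the controls.

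Col2a1 (ENSMUSG00000022483.18, chromosome 15), the main collagen of cartilage, fell in the knockouts. It had 92.2 and 55.3 normalised reads in the knockouts, against 194 and 333 in the controls. Both knockouts were below both controls, and control 2 stood well above control 1. The log2 fold change was -1.82 (SE 0.32, 95% interval -2.56 to -1.08, limma Benjamini-Hochberg adjusted p = 0.00647). The call was lost without control 2 (adjusted p = 0.144, log2 fold change -1.43) and without knockout 3 (adjusted p = 0.054).

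Col11a2 (ENSMUSG00000024330.18, chromosome 17), a minor fibrillar chain known with type II in cartilage, rose. It had 91.2 and 106.5 normalised reads in the knockouts, against 40.7 and 38.7 in the controls. The groups were far apart and each pair was close together. The log2 fold change was 1.29 (SE 0.27, 95% interval 0.68 to 1.90, limma Benjamini-Hochberg adjusted p = 0.013). Leaving out any 1 library ended the call (adjusted p between 0.0655 without control 1 and 0.1465 without knockout 3). Per kilobase, Col11a2 stood at 0.801 and 1.56 times Col2a1 in the knockouts, against 0.17 and 0.094 times in the controls.

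Col11a1, the partner of Col11a2 in type XI collagen, had 39.1 and 81.95 normalised reads in the knockouts, against 66.9 and 54.5 in the controls, with overlap. Col24a1 and Col27a1, fibrillar collagens of vertebrate skeleton and other tissues, had log2 fold changes of 0.99 (-0.06 to 2.05) and 0.78 (0.12 to 1.43). Both lay higher in the knockouts without overlap, and neither was called (limma Benjamini-Hochberg adjusted p = 0.185 and 0.105).

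Basement membrane genes were then set against the fibrillar collagens. Of 18 tested basement membrane genes 1 was higher and 0 lower, or 5.56% beside 16.8% of all genes, and 2 had an unadjusted limma p under 0.05. Of 11 fibrillar genes 1 was higher and 1 lower, or 18.2%, and 3 had an unadjusted p under 0.05. Of all genes, 3.28% were higher and 13.5% lower. The median log2 fold change was 0.01 for the basement membrane genes, with Lama5 the highest at 0.43. It was 0.09 for the fibrillar genes, with a range of -1.82 to 1.29, beside 0.01 for all genes. The difference of the medians was -0.075, with no test.

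In single libraries, the median log2 difference of the basement membrane genes from the control mean was -0.10 in knockout 1 and 0.14 in knockout 3, against 0.01 and -0.01 in the controls. For the fibrillar genes it was -0.03 and 0.23 in the knockouts, against -0.04 and 0.04 in the controls. The knockouts lay on both sides of the controls in the basement membrane genes, and knockout 3 was the highest library in both classes. Knockout 3 exceeded knockout 1 in 17 of 18 basement membrane genes and 10 of 11 fibrillar genes, beside 8131 of all 17480 genes. Among markers it did so in 9 of 12 interstitial fibroblast, 10 of 15 peritubular myoid and 16 of 30 Sertoli genes. The counts were 7 of 12 for endothelial, 5 of 12 for macrophage and 3 of 12 for Leydig markers.

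Summed over the class, the basement membrane genes had 42748 and 47298.5 normalised reads in the knockouts, against 43165 and 43303 in the controls. The fibrillar genes had 17269 and 21660 in the knockouts, against 18430 and 19090 in the controls. Both sums were highest in knockout 3, while those of knockout 1 were below the controls. The ratio of the 2 sums was 2.48 and 2.18 in the knockouts, against 2.34 and 2.27 in the controls, so the control ratios fell inside the knockout range. With libraries rescaled by Sertoli cell markers the median of all genes was -0.21, that of the basement membrane genes -0.21 and that of the fibrillar genes -0.14. That scaling and library totals each multiply a library by 1 factor, which shifts all genes nearly alike. The difference of the class medians, then -0.076 and -0.075, could therefore hardly change, and says nothing more about the classes.

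**Figure D2:**
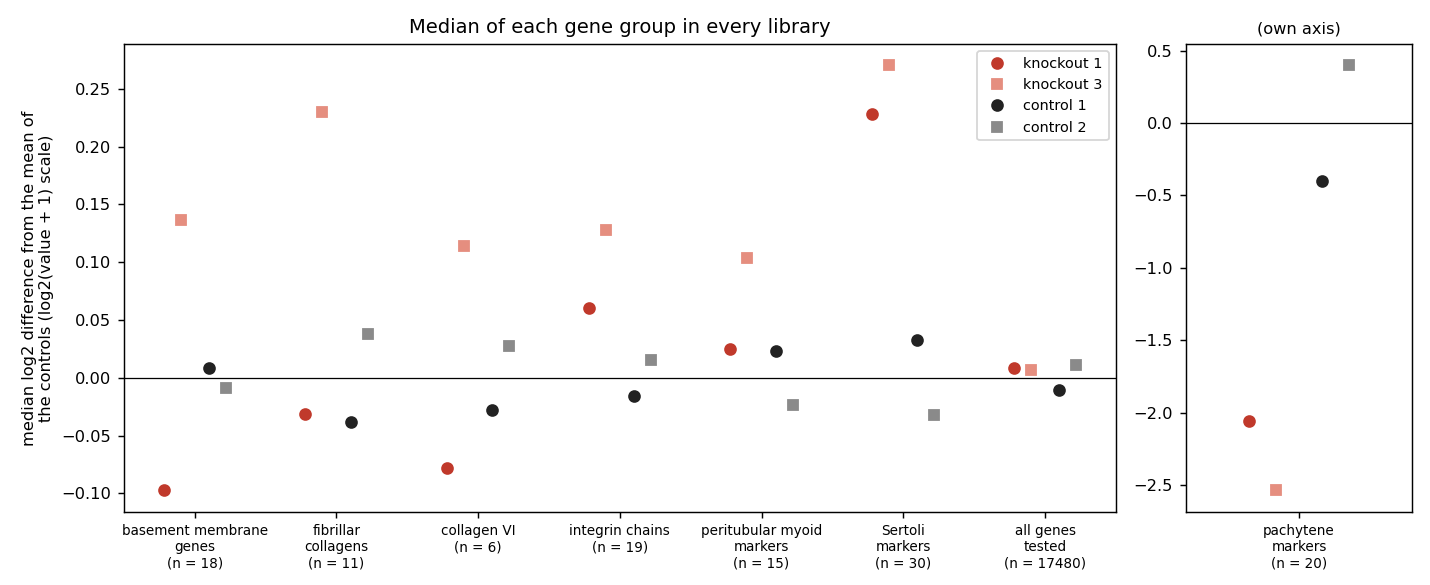
Median log2 difference from the control mean, on the log2(value + 1) scale, for each gene group in each library, with pachytene spermatocyte markers on an axis of their own. Knockout 3 lies above knockout 1 in the basement membrane, fibrillar, collagen VI and integrin groups and in the peritubular myoid and Sertoli markers. The pachytene markers lie below the controls in both knockouts.

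The FACIT collagens, which sit on the surface of fibrils, held both of the other collagen falls. These were 2 of 8 tested FACIT genes, or 25%, beside 13.5% of all genes lower. Of all 42 tested collagens 1 was higher and 3 lower, or 9.52%, beside 16.8% of all genes called. Col16a1 (ENSMUSG00000040690.16, chromosome 4), a collagen of skin and smooth muscle matrix, had 476 and 446 normalised reads in the knockouts, against 669 and 1072 in the controls. The knockouts were close to each other and below both controls, and control 2 was the highest. The log2 fold change was -0.88 (SE 0.20, 95% interval -1.33 to -0.42, limma Benjamini-Hochberg adjusted p = 0.0187). Without control 2 it was -0.54 and not called (adjusted p = 0.101), and it was also not called without knockout 1 (0.0775) or knockout 3 (0.129), while without control 1 it was -1.22 (0.00645).

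Col9a1 (ENSMUSG00000026147.17, chromosome 1), which encodes a chain of the cartilage FACIT type IX, had 6.01 and 6.15 normalised reads in the knockouts, against 30.1 and 41.65 in the controls. These stand for 6 and 6 reads in the knockouts and 31 and 42 reads in the controls. It was the lowest of the called genes in level and the furthest from 0 in fold change, at -2.36 (SE 0.48, 95% interval -3.45 to -1.27, limma Benjamini-Hochberg adjusted p = 0.0114). The call held without control 1 (adjusted p = 0.0186) and was lost without control 2 (0.0504), knockout 1 (0.0563) or knockout 3 (0.065).

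The other chains of type IX lay on the opposite side. Col9a3 had 142 and 111 normalised reads in the knockouts, against 74.7 and 72.4 in the controls, and Col9a2 had 30.1 and 50.2, against 26.2 and 17.85. Neither overlapped between groups, and neither was called (0.76, limma Benjamini-Hochberg adjusted p = 0.0619, and 0.82, adjusted p = 0.229). Col9a3 shares 234 exon bases with Tcfl5 in the older annotation, so its count is uncertain. Of the remaining FACIT genes, Col22a1 had 307 and 348 in the knockouts, against 262 and 261 in the controls (0.32, -0.01 to 0.66). Col14a1, Col20a1 and Col12a1 overlapped between groups.

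Col2a1, Col9a1, Col16a1 and Itgb3bp were higher in control 2 than in control 1, as were the pachytene markers whose sums are given above, while Itga1 was not. Control 2 exceeded control 1 in 39 of the 73 tested genes and in 9351 of all 17480 genes. The part of the pachytene markers in the 4 falls was not tested.

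**Figure D3:**
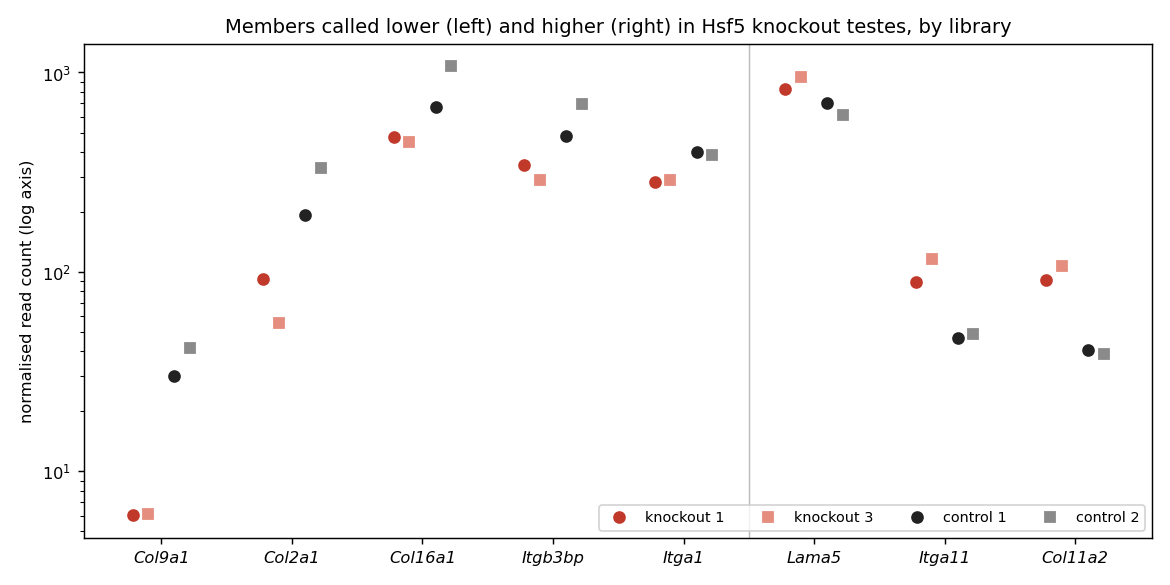
Normalised read count on a log axis for the 8 called genes in knockout 1, knockout 3, control 1 and control 2. The groups do not overlap in any of them, and control 2 stands apart from control 1 in Col2a1, Col16a1 and Itgb3bp.

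Collagen VI, which forms beaded filaments around many cells, was represented by 6 genes with a median log2 fold change of 0.06. Col6a1 had 2423 and 3028 normalised reads in the knockouts, against 2534 and 2506 in the controls. Col6a2 had 1221 and 1472 in the knockouts, against 1307 and 1310 in the controls. The knockouts again lay on both sides of the controls, and no collagen VI gene was called by limma or had an unadjusted p under 0.05.

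The remaining collagens were scarce and none was called. Col7a1, the anchoring fibril collagen, had 58.1 and 93.2 normalised reads in the knockouts, against 39.75 and 35.7 in the controls, and its log2 fold change of 0.95 (0.20 to 1.70) had a limma Benjamini-Hochberg adjusted p of 0.087. The transmembrane Col13a1 had 132 and 186 in the knockouts, against 122 and 89.2 in the controls (0.58, 0.00 to 1.17). Both genes lay higher in the knockouts without overlap. The transmembrane Col17a1, Col23a1 and Col25a1 had log2 fold changes between -0.11 and 0.04. Those of the network-forming Col8a2 and Col8a1 were 0.35 and -0.42, and those of Col26a1 and Col28a1 were -0.23 and -0.27.

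Integrin chains were tested for 12 alpha and 7 beta genes. Itgb1, the beta chain shared by most matrix receptors, had the highest level per kilobase of all 78 genes, at a mean of 1528.5 in the knockouts and 1445 in the controls. It was followed by Col1a2 at 1316 in the knockouts and 1301.5 in the controls, and Col3a1 at 1223 in the knockouts and 1171 in the controls. The normalised reads of Itgb1 were 5642 and 6020 in the knockouts, against 5698 and 5326 in the controls, with overlap and a log2 fold change of 0.08 (-0.08 to 0.25). Itgb5, a beta chain of RGD-binding receptors, had 1945 and 1849 in the knockouts, against 1670.5 and 1719.5 in the controls, without overlap but not called (0.16, -0.02 to 0.35).

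Of 19 tested integrin chains 1 was called higher and 1 lower, or 10.5%, beside 16.8% of all genes. Both called chains bind collagen, as 4 of the tested chains do, and they moved in opposite directions. Itga1 (ENSMUSG00000042284.11, chromosome 13), which pairs with Itgb1 and prefers basement membrane collagen, had 282 and 288 normalised reads in the knockouts, against 399.5 and 386 in the controls. Itga11 (ENSMUSG00000032243.9, chromosome 9), the fibroblast receptor for fibrillar collagen, had 89.2 and 116 in the knockouts, against 46.5 and 48.6 in the controls. In each gene both knockouts lay on the same side of both controls, and the replicates lay closer together in Itga1 than in Itga11, whose knockouts differed by 0.37 on the log2 scale.

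Itga1 fell by 0.46 on the log2 scale (SE 0.13, 95% interval -0.77 to -0.16, limma Benjamini-Hochberg adjusted p = 0.0475). Itga11 had a log2 fold change of 1.08 (SE 0.27, 0.47 to 1.69, adjusted p = 0.027). The ratio of Itga11 to Itga1 per kilobase was 0.699 and 0.8875 in the knockouts, against 0.257 and 0.278 in the controls. Both calls were lost when any 1 library was left out (adjusted p between 0.151 and 0.21 for Itga1 and between 0.082 without knockout 1 and 0.246 without knockout 3 for Itga11), and that of Itga1 also with library totals (0.111) or a pseudocount of 5 (0.0507). Itga1 shares 451 exon bases with the predicted gene Gm49395 in the older annotation, on the same strand, so its count is uncertain.

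The other collagen receptors, Itga2 and Itga10, were scarce, with 15.0 and 15.4 normalised reads for Itga2 in the knockouts, against 7.76 and 29.75 in the controls. Among the 4 laminin-binding chains, Itga6, which is used to enrich spermatogonial stem cells, had 1688 and 2003 in the knockouts, against 1755 and 1560 in the controls. The 4 chains had a median log2 fold change of -0.08, and none was called by limma or had an unadjusted p under 0.05. The same held for the 5 tested RGD-binding chains, with a median of 0.12. Within these, Itgb8, an activator of TGF-beta, had 319 and 565.5 in the knockouts, against 326 and 286 in the controls, so knockout 3 alone stood high. Of 4 leukocyte and platelet chains, Itga2b of platelets had 42.1 and 36.9 in the knockouts, against 19.4 and 19.8 in the controls (0.97, 0.13 to 1.81, limma Benjamini-Hochberg adjusted p = 0.112).

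Promoter sequences are shown for both collagen receptors and for Col16a1 and Col11a2, as genes of 1 family that moved in opposite directions. Each is the 250 bases before the RefSeq start of transcription in build GRCm38.p6, an older build than the mm39 named for the files, written along the gene's strand. Capitals mark matches to 3 short motifs searched on both strands, with no overlap between matches. They are the GC box, spelled GGGCGG, then the CCAAT box, and then the core of the TATA box, spelled TATAAA.
Itga1, chr13:115101965-115102214, minus strand: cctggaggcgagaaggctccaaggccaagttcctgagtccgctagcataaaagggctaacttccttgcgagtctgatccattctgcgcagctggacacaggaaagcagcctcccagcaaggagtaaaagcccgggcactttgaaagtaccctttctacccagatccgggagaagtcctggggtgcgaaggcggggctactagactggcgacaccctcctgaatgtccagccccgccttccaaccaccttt
Itga11, chr9:62677605-62677854, plus strand: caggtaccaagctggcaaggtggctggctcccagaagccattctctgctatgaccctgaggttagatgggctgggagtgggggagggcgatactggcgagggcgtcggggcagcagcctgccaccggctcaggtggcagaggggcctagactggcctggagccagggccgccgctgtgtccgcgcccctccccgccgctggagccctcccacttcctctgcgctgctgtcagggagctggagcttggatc
Col16a1, chr4:130047590-130047839, plus strand: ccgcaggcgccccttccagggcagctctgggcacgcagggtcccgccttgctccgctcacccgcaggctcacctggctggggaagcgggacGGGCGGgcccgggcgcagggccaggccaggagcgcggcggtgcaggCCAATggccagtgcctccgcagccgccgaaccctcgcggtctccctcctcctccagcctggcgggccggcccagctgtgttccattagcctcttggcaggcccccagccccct
Col11a2, chr17:34038888-34039137, plus strand: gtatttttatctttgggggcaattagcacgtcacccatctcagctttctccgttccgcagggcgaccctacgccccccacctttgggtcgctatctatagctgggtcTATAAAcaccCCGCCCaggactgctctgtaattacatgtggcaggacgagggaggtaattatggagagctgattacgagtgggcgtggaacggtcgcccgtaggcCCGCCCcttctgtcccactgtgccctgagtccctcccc
Neither integrin window holds a searched motif. The Col16a1 window holds 1 GC box and 1 CCAAT box, and that of Col11a2 holds 1 TATA box core and 2 GC boxes. In all, 62 windows of 57 of the 78 genes were in the RefSeq table. The GC box was found in 48.4% of them and in 32.7% of 32851 windows of the same length. The CCAAT box was found in 25.8% of them and in 33.9% of all windows, and the TATA box core in 8.06% and 12.4%. The heat shock element core GAANNTTC was found in 3 of the 62 windows, those of Col4a5, Itgb5 and Lama2, or 4.84%, beside 6.69% of all windows. A match is a description of the letters and not a site of binding.

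The 3 proteins caught by the name pattern, of which 2 were tested, include 1 call, or 50% beside 16.8% of all genes. Itgb3bp (ENSMUSG00000028549.18, chromosome 4) encodes a centromere protein that also binds the integrin beta 3 tail. It had 345 and 290 normalised reads in the knockouts, against 483 and 693 in the controls. Both knockouts were below both controls, and the log2 fold change was -0.87 (SE 0.19, 95% interval -1.30 to -0.44, limma Benjamini-Hochberg adjusted p = 0.0147). The call was lost without control 2 (adjusted p = 0.15, log2 fold change -0.61) and without knockout 3 (0.127). Itgb1bp1, which binds the tail of the beta 1 chain, had 374 and 271.5 in the knockouts, against 393 and 595 in the controls. It did not overlap and was not called (-0.60, -1.11 to -0.09, adjusted p = 0.108).

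All 8 called genes had a mean under 1000 normalised reads. Of the 21 genes at or above 1000, a limit chosen after the values were seen, limma called 0, beside 25.2% of the 4982 genes at that level, and 1, Lama1, had an unadjusted p under 0.05. Their log2 fold changes lay between -0.09 and 0.26, and their 95% intervals reached no further than -0.36 and 0.48. Over all levels, 80.8% of the tested genes lay within 1.5-fold, beside 80.4% of all genes, and 4 lay beyond 2-fold, Col9a1, Col2a1, Col11a2 and Itga11.

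**Figure D4:**
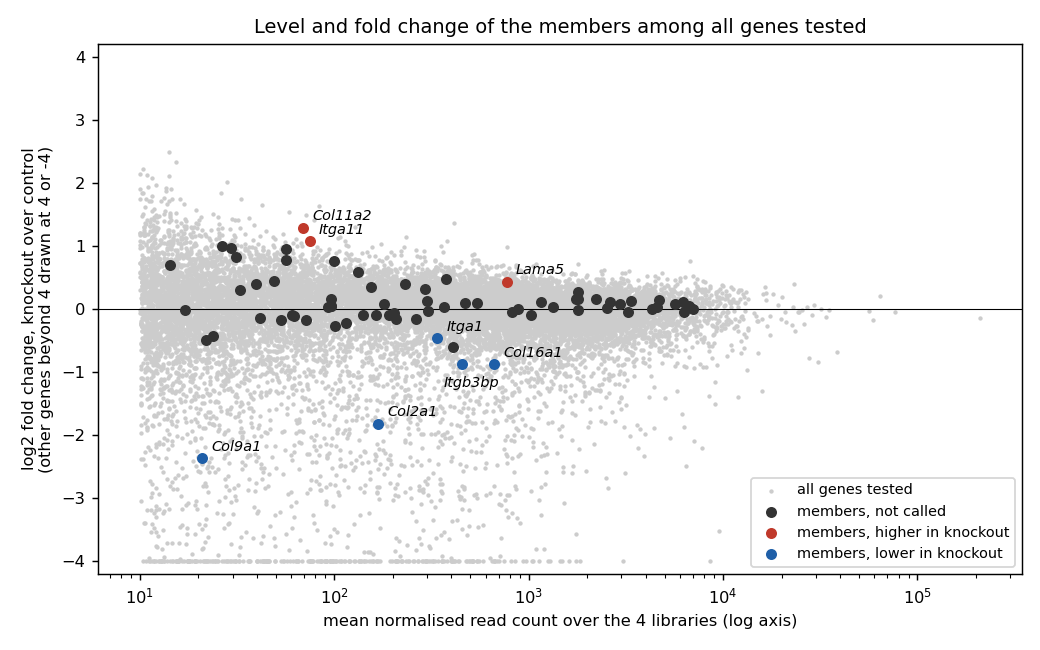
Log2 fold change of knockout over control against the mean normalised read count over the 4 libraries (log axis) for all 17480 genes tested, with the 73 tested genes drawn larger. The 21 genes at a mean of at least 1000 lie between -0.09 and 0.26, and the 8 called genes lie at lower levels.

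Genes that make, modify or bind this matrix were taken from 6 lists. Of 18 other basement membrane components, none was called by limma, 2 had an unadjusted p under 0.05, and the median log2 fold change was 0.12. The most abundant, Sparc, a collagen-binding protein, had 30688 and 29439 normalised reads in the knockouts, against 29386 and 28053 in the controls. Dag1, which encodes dystroglycan, a laminin receptor, had 5029 and 5543 in the knockouts, against 5472 and 4865 in the controls.

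Of 29 collagen maturation genes, 2 were higher and 1 lower, or 10.3% beside 16.8% of all genes, with a median of 0.11. Mia3, which loads collagen into carriers leaving the endoplasmic reticulum, had 1515 and 1464 normalised reads in the knockouts, against 2091 and 2311.5 in the controls. It fell by 0.56 on the log2 scale (limma Benjamini-Hochberg adjusted p = 0.00329), and the call held without each library (adjusted p up to 0.0471). P3h4, a subunit of a collagen lysine hydroxylation complex, had 1513 and 1353 in the knockouts, against 1091 and 981 in the controls (0.47, adjusted p = 0.0159). Bmp1, which cleaves the ends of fibrillar procollagens, had 616 and 735.5 in the knockouts, against 492.5 and 410.5 in the controls (0.58, adjusted p = 0.0255). The groups did not overlap in these 3 genes, but P3h4 and Bmp1 lost the call without control 2, knockout 1 or knockout 3 (adjusted p between 0.0545 and 0.226).

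Of 19 interstitial matrix partners, Tnxb, a tenascin that spaces collagen fibrils, was the 1 called gene, or 5.26%, beside 16.8% of all genes. It had 540 and 613 normalised reads in the knockouts, against 369 and 377 in the controls (0.62, limma Benjamini-Hochberg adjusted p = 0.0113), and lost the call without control 1 (0.0614), control 2 (0.0906) or knockout 3 (0.136). Of 14 matrix metalloproteases and inhibitors, Mmp11 was called higher, or 7.14%, beside 16.8% of all genes called. Mmp11 had 967 and 874 in the knockouts, against 628 and 605 in the controls (0.58, limma Benjamini-Hochberg adjusted p = 0.00765). It lost the call without control 2 (0.0766) or knockout 1 (0.0863).

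Of 20 genes of the integrin adhesion complex inside the cell, 2 were higher, Zyx and Bcar1, and 0 lower, beside 16.8% of all genes called, with a median of 0.16. Zyx had 3522 and 3501 normalised reads in the knockouts, against 2995 and 2761 in the controls, and Bcar1 had 2172 and 2164, against 1843 and 1674. Their log2 fold changes were 0.29 and 0.30 (limma Benjamini-Hochberg adjusted p = 0.0339 and 0.0418), and both calls were lost without control 2, knockout 1 or knockout 3 (adjusted p between 0.166 and 0.2115). Of 5 tested integrin chains outside the name pattern, Itgae, known from intraepithelial lymphocytes, was called lower, or 20%, beside 16.8% of all genes called. It had 59.1 and 63.5 in the knockouts, against 111.5 and 295.5 in the controls (-1.55, adjusted p = 0.0326). Without control 2 it stood at -0.85 and was not called (adjusted p = 0.237). It was also not called without knockout 1 (0.141) or knockout 3 (0.143). With Sertoli marker scaling, under which all genes had a median of -0.21, the median was below 0 for the lists of other basement membrane components (-0.10), collagen maturation (-0.11), interstitial partners (-0.16), metalloproteases (-0.12) and the adhesion complex (-0.07). P3h4, Bmp1, Zyx and Bcar1 then stayed positive and lost the call (limma Benjamini-Hochberg adjusted p = 0.1115, 0.0983, 0.578 and 0.5325). Tnxb (0.40, adjusted p = 0.0495) and Mmp11 (0.35, adjusted p = 0.0407) kept it.

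The authors' deposited table gave an adjusted p for 74 of the 78 genes and 5 of them under 0.05, Col2a1, Col9a1, Col16a1, Itgb3bp and Col11a2, each in the direction given here. Over all genes with an adjusted p in the authors' deposited table, 13.5% were under 0.05. That table gives Lama5 an adjusted p of 0.0509, Itga11 0.0759 and Itga1 0.148.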

How the data were processed

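RNA from whole testes of postnatal day 16 mice was made into libraries with an NEBNext Ultra kit, per the labels' protocols. Build mm39 and the tools featureCounts, cutadapt, DESeq2 and Bowtie2 are named, without roles, in the submitters' processing notes. The sources used here give no version, setting, strand or annotation. The deposited signal of each gene was taken as a read count over a size factor constant within a library. The values were whole multiples of 1 step per library within 1e-06, but in knockout 1 and control 2 that step lies too close to 1 for the check of whole reads to tell. Tests on whole reads were therefore planned and not run, and read totals in these libraries rest on the step alone. Per the file headers the authors also deposited a log2 fold change, a test statistic score and p-values.

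A limma test (limma 3.58.1, R 4.3.3) with a mean-variance trend was run on log2(value + 1) over 17480 genes with a mean of at least 10 in the 4 libraries, with 6.3 prior and 2 residual degrees of freedom. Most of the variance behind each p thus comes from the trend over genes. Calls were made at an adjusted p under 0.05, by the Benjamini-Hochberg method over all genes tested. "Rose", "fell", "higher" and "lower" of a call refer to that threshold. The name pattern, the gene lists and the members were chosen with earlier results of these data known. Named were all called genes, the most abundant pair of each role, and of each pathway list up to 3 called genes or else the most abundant pair. Marker lists are given by counts, with names where 1 to 4 genes were called. Further genes were picked with their values in view. On simulated data with the real means, 40.8% of genes changed 1.5-fold, 83% changed 2-fold, 97.9% changed 4-fold and 100% changed 8-fold were recovered, with 10 false calls among 17454 genes. The simulation changed few genes, gave all genes the same spread beyond sampling noise and held no shift shared by many genes of a library. Its rates therefore do not carry over to these data.

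Exon lengths and overlaps came from GENCODE M21, which is on GRCm38 and not on mm39, and served only for values per kilobase and for overlaps. Of the 78 genes, 23 share exon bases with another gene there. Among them are Itga10 (1739 bases), Itgb1bp1 (366), Lamc3 (329) and Col4a3 (274), whose counts are uncertain for the same reason as those marked above. Tables were handled in Python 3.11.15. Knockout 2 and control 3 have no column of values in the data used here and were not analysed. The values of 1 laminin gene, which stays in the counts and medians, are not reported here.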

Additional observations from a re-analysis of the deposited data

How the results depend on the processing

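With all 4 libraries, 2939 genes were called, 80.5% of them lower. The counts of called collagen, laminin and integrin genes depended on the filter, the variance model and single libraries. Without a filter on low values 852 genes were called, with 0 higher and 0 lower in the set, and without the mean-variance trend 40 genes, again with 0 and 0. Leaving out 1 library at a time gave 920 to 2433 genes called, 0 to 1 higher in the set and 0 to 4 lower. No gene of the set was called without control 2 or without knockout 3. The higher gene without knockout 1 was Itgb8, outside the 8. The median log2 fold change then lay between -0.10 and 0.14 for the basement membrane genes and between -0.031 and 0.23 for the fibrillar genes, and their difference between -0.094 and -0.011. Library totals gave 7 higher genes, adding Col7a1, Col9a3, Lama1 and Lamb2, and 57.0% of all calls were then lower. Scaling to Sertoli markers gave 4712 genes called, 98.0% of them lower, adding Col4a1 and Itgb1bp1 among the lower genes. It put the class medians at -0.21 and -0.14, where all genes had -0.21. Pseudocounts of 0.5 and 5 and a minimum mean of 50 left each of these counts within 1.5 times, and at the minimum of 50 Col9a1 was not tested. The cause was not tested. Among the named genes' fold changes, 45 values lost and 5 gained the call. No called gene changed sign, but 19 named genes that were not called did so under some setting, in each case without a call there. With library totals the log2 fold change was 0.021 for Col15a1, 0.057 for Col4a1 and 0.069 for Lamc3. With Sertoli marker scaling it was -0.18 for Col17a1, -0.11 for Col18a1, -0.22 for Col1a2, -0.17 for Col3a1, -0.19 for Col4a2, -0.12 for Col6a1, -0.19 for Col6a2, -0.071 for Itga6, -0.13 for Itga9, -0.14 for Itgb1, -0.061 for Itgb5, -0.20 for Lama2, -0.14 for Lamb1, -0.082 for Lamb2 and -0.058 for Lamc1. Leaving out 1 library at a time gave -0.23 to 0.050 for Col15a1, -0.21 to 0.29 for Col17a1, -0.17 to 0.18 for Col1a2, -0.72 to 0.19 for Col28a1, -0.12 to 0.22 for Col3a1, -0.0056 to 0.076 for Col4a2, -0.057 to 0.26 for Col6a1, -0.10 to 0.17 for Col6a2, -0.14 to 0.33 for Itga9, -0.12 to 0.16 for Lama2 and -0.16 to 0.078 for Lamc3. No paired analysis was possible because the analysed libraries of the 2 groups share only the number 1. The planned tests on whole reads were not run. Depth limits the scarce genes most, such as Col9a1 with 6 reads in each knockout.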
